A study of Mus musculus with 2 samples.

Results

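The matrix metalloproteinases, the related ADAMTS and ADAMTS-like proteins, and the tissue inhibitors of metalloproteinases (TIMPs) were examined as a gene family in mouse liver and adipose tissue. Members were all array genes whose symbol begins with Mmp or Timp and a digit, or with Adamts. The reference annotation holds 51 such genes, and 49 of the 20886 genes on the array carried a probe: 22 Mmp, 4 Timp, 19 Adamts and 4 Adamtsl genes. They were covered by 64 probes, with 34 genes on 1 probe and 15 on 2 probes. Mmp27 and Adamtsl5 had no matched probe and were not analysed here.

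The study compared high-fat feeding with normal feeding. The animals were male C57BL/6J wild-type mice, of an age not given in the sources used here, fed either diet for 4 weeks before the tissues were taken. The labels say that RNA of 10 livers and of 10 adipose tissues was combined by diet. It is not stated whether each pool held all 10 animals or fewer, nor which fat depot was taken. Each tissue was measured on 1 two-colour array, on which Cy3 (green) marked the normal-diet pool and Cy5 (red) the pool from mice on high fat. No array was repeated and no dye was swapped. The values therefore describe these pools, without an estimate of the spread between animals and without p-values, and diet and dye cannot be told apart at any probe.

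Matrix metalloproteinases are zinc-dependent enzymes that cut collagens, elastin, laminins and many cell-surface proteins, and most are made as inactive precursors. TIMPs bind their active site, so the balance of enzyme and inhibitor sets how much matrix is cut. ADAMTS enzymes cut proteoglycans, procollagen ends or von Willebrand factor, whereas ADAMTS-like proteins share their matrix-binding parts but have no protease domain. In adipose tissue these proteins are known for the matrix remodelling that accompanies the growth of fat cells, and in liver for the turnover of scar matrix.

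Both channels gave a signal well above background at 23041 probes in liver and at 23189 in fat, giving ratios for 13642 and 14315 genes. The median spot signal on the adipose array was 97 for the normal diet and 274 for high fat, over local backgrounds of 28 and 52.5. Raw spot signals thus ran higher for high fat there, and the pools are compared by the ratio after normalization. Probes detected in a sole channel numbered 4188 for high fat and 520 for the normal diet there, against 867 and 790 in liver. The liver array was the brighter for 13 of 15 hepatocyte markers, and 10 of 10 measured adipocyte markers were brighter on the adipose array. The adipose pools also differed in genes of other organs. All 16 small intestine epithelium markers and all 8 measured Paneth cell markers were at least 2-fold higher in the high-fat pool, while 11 of 15 hepatocyte, 11 of 12 exocrine pancreas and 5 of 6 male reproductive tract markers were at least 2-fold lower. Skeletal muscle markers were at least 2-fold lower in the high-fat pools of both tissues, 5 of 8 in fat (median log2 ratio -1.48) and 8 of 10 in liver (median -1.45). Each tissue had a slide of its own, so slide and tissue cannot be told apart.

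A run of 10 Mmp genes lay on chromosome 9, in the order Mmp13, Mmp12, Mmp1b, Mmp3, Mmp1a, Mmp10, Mmp8, Mmp27, Mmp20 and Mmp7, with no other protein-coding gene between them in the reference annotation. In fat 3 of the 9 on the array were measured in both channels, 2 were detected for high fat alone and 4 in neither channel. In liver Mmp7 was measured and the other 8 were not well above background. The AP-1 motif, spelled TGANTCA and identical on both strands, is bound by the Fos and Jun factors. It was searched in the 250 bases before each RefSeq gene start for which a promoter sequence was available. It lay in 8 of 39 promoters of the family (20.5%) and in 6.75% of all 32851 promoters. All 8 belonged to genes of the chromosome 9 run (Mmp1a, Mmp1b, Mmp3, Mmp7, Mmp10, Mmp12, Mmp13 and Mmp20), and it was in 0 of the family's 27 promoters outside the run. The 39 promoters covered 36 of the 51 family genes, among them all 10 of the run. Members outside the run without a promoter sequence, such as Mmp2, Mmp9 and Adamts5, were not searched. The TATA box letters TATAAA were found in 25.6% of the family's promoters and 12.4% of all. The ETS core GGAAG was found in 71.8% and 64.1%. These matches describe the letters and do not show binding.

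The 100 bases before the start of the 5 run members detected in fat are shown because they carry the motif and include the member with the highest ratio. They come from RefSeq on build GRCm38.p6, plus strand, at chr9:7691990-7692089 for Mmp7, chr9:7502242-7502341 for Mmp10, chr9:7272414-7272513 for Mmp13, chr9:7445722-7445821 for Mmp3 and chr9:7347274-7347373 for Mmp12. Mmp7 and Mmp12 each have another start in that table, whose promoter lacks the motif. Capitals mark the AP-1 motif.
Mmp7: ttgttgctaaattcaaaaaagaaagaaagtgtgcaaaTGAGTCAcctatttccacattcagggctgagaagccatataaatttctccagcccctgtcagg
Mmp10: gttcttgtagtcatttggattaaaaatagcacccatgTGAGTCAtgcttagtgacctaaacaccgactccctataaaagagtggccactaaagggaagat
Mmp13: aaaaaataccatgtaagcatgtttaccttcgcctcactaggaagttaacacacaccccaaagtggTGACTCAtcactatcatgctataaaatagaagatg
Mmp3: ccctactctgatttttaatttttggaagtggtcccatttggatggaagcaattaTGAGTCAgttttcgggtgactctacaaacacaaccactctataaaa
Mmp12: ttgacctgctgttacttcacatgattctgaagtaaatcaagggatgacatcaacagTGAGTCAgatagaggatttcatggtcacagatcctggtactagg
The first base of the motif lay 63 bases before the start in Mmp7 and in Mmp10, 46 in Mmp3, 44 in Mmp12 and 35 in Mmp13. The 5 genes with the motif did not have one pattern on the adipose array, as their values below show.

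In adipose tissue 30 members were measured in both channels, 7 had signal well above background for high fat alone, 1 for the normal diet alone and 11 for neither. At least 2-fold higher in the high-fat pool were 2 of the 30, Mmp7 and Adamtsl2, and 0 were at least 2-fold lower. Among all measured genes of that array 4.23% were at least 2-fold higher and 5.13% lower. The members' median log2 ratio was 0.02 (range -0.78 to 2.11), beside -0.01 over all genes, with percentiles 5 and 95 at -1.02 and 0.89. In liver 22 members were measured in both channels, and 0 were 2-fold higher or lower, where 0.491% of all genes were higher and 0.579% lower. Their median log2 ratio was 0.01 (range -0.31 to 0.20). Fewer cells of a type and less RNA per cell cannot be told apart in such tissue pools.

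**Figure D1:**
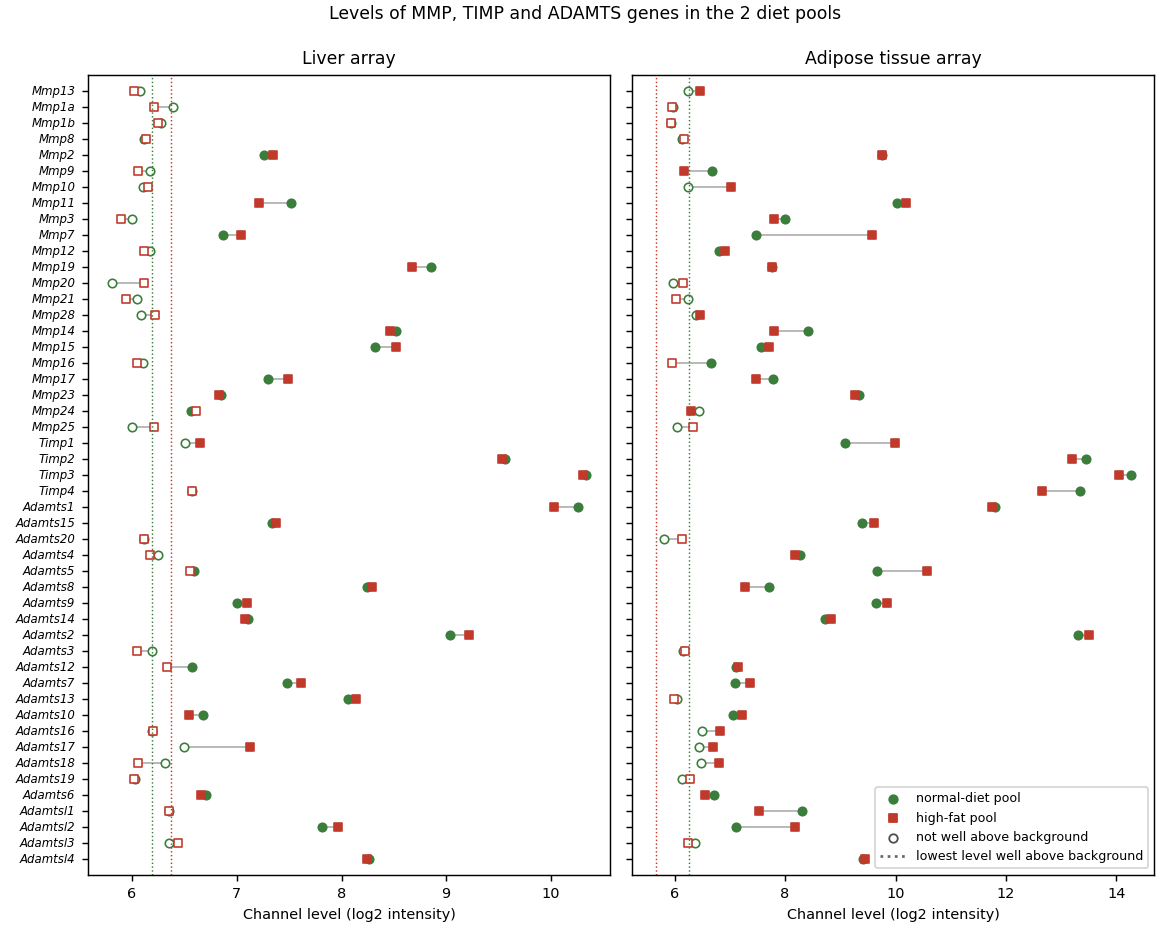
Channel level (log2 intensity, horizontal axis) of the 49 genes in the normal-diet pool (green circles) and the high-fat pool (red squares) of the liver and adipose arrays; open symbols were not well above background and dotted lines mark the lowest level that was. The widest gap among members measured in both channels is that of Mmp7 in fat, from 7.47 to 9.58.

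The scanner software attaches an error to its own ratio of each spot, which describes that slide and no animal-to-animal difference. Here this error is set beside the loess ratio, which is pulled more towards 0 at dim spots. Its median over the members was 0.21 in either tissue. At bright genes measured by 1 spot it was nearly the same whatever the level, as for Adamts2 (0.205) and Mmp2 (0.204) in fat. For such genes 2 errors act much like a fixed cut on the ratio. The error of a mean over spots or probes was computed as smaller than that of each. In fat 9 of 30 members had a ratio larger than 2 such errors (30%), beside 31.3% of all genes. They were Mmp7, Adamtsl2, Adamts5 and Timp1, which were higher in the high-fat pool, and Adamtsl1, Timp4, Mmp14, Mmp9 and Adamts8, which were lower. Median centring in place of loess, which moves the median of all genes in fat to 0.69, gave -1.16 for Mmp9, -0.28 for Adamtsl1, -0.13 for Adamts8, -0.04 for Mmp14 and 0.40 for Timp4, all under that median. That setting leaves a trend of the ratio with brightness. Members with loess ratios nearer 0 read low there when dim (Mmp12 -0.03, Adamts12 0.10) and high when bright (Adamts1 0.98, Mmp2 0.90). A place under that median therefore cannot show that a dim member was lower. In liver 0 of 22 members had a ratio over 2 errors, beside 10.1% of all genes. By the loess ratio the members' share was thus close to that of all genes in fat. By the software's own ratio further members passed 2 errors. In liver this was Mmp11 (-0.63, error 0.19). In fat they were Adamts10 (0.73, error 0.25), Adamts7 (0.57, error 0.24), Mmp17 (-0.48, error 0.22) and Timp2 (-0.295, error 0.146). The share of all genes by that ratio was not counted.

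**Figure D2:**
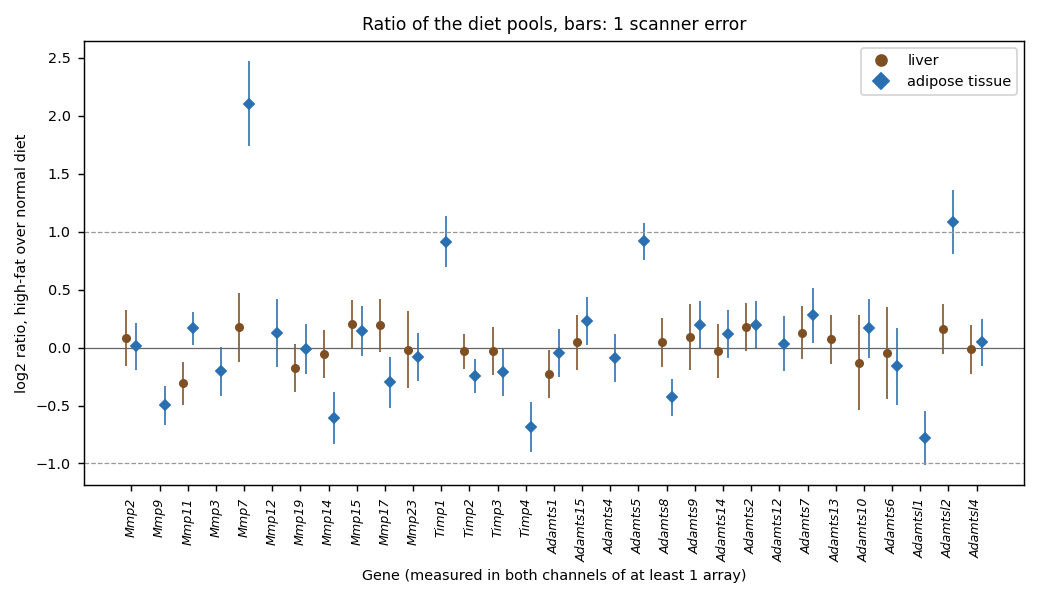
Log2 ratio of the high-fat over the normal-diet pool (vertical axis) for each member measured in both channels of at least 1 array; circles are liver, diamonds adipose tissue, bars 1 scanner error, and dashed lines the 2-fold marks. Mmp7 (2.11) and Adamtsl2 (1.08) in fat lie above the upper mark, and the 22 liver values lie between -0.31 and 0.20.

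Mmp7 (matrilysin), a small secreted protease that Paneth cells of the intestine use to activate defensins, had the highest ratio of the family. Its spot on the adipose array read 94.5 over a local background of 27 in the normal-diet channel and 1854 over 55 in the high-fat channel. After normalization its level was 7.47 and 9.58, a log2 ratio of 2.11 ± 0.37 (scanner error) or 4.30-fold, at rank 196 of 14315 genes. The scanner software's own log2 ratio was 3.26, and an offset of 10 in place of 50, which pulls ratios of dim spots less towards 0, gave 2.55. On the same array the summed level of the 8 measured Paneth cell markers was 32669 in the normal-diet pool and 722562 in the high-fat pool, with log2 ratios between 1.73 and 6.36. The summed level of the 16 intestinal markers was 16971 and 503468. No marker of either list on the array was below background in either pool. Their part in the Mmp7 ratio was not tested. In liver the spot read 74 over 26 and 107 over 44, for a log2 ratio of 0.17 ± 0.30, within the scanner error. There 3 Paneth cell markers were measured, with a median log2 ratio of 0.78.

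Of the stromelysins, Mmp3, Mmp10 and Mmp11, it is Mmp3 and Mmp10 that cut a broad range of matrix proteins and can activate other members. Mmp10 (stromelysin-2) on the adipose array read 53.5 over 28 in the normal-diet channel, where it was not well above background, and 195.5 over 53 in the high-fat channel. The ratio is then a bound, the high-fat level over the lowest level that counts as detected. For Mmp10 the bound was 1.70-fold higher in the high-fat pool, the largest in the family. Its measured log2 ratio of 0.78 ± 0.54 was within 2 scanner errors of 0, so the bound is no firm minimum. Where a dim channel read above that lowest level, its own level was used and the fold is the measured one. Mmp3 (stromelysin-1) read 156.5 over 30 and 513 over 57, with a log2 ratio of -0.20 ± 0.21. Mmp11 (stromelysin-3), which furin activates inside the cell, had levels of 10.03 and 10.19 in fat, with ratios of 0.11 and 0.22 at its 2 probes. These stromelysins were thus close in both fat pools apart from the bound for Mmp10. In liver Mmp11 had the lowest ratio of the family, -0.31 ± 0.19, from levels of 7.52 and 7.21, with -0.29 and -0.32 at its probes. That liver value was -0.63 by the software's ratio and -0.02 with all local backgrounds as deposited.

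Collagenases cleave the intact triple helix of fibrillar collagen. Of the 4 collagenase genes, Mmp1a, Mmp1b and Mmp8 were not well above background in any pool of either tissue. Mmp13 (collagenase-3) was detected in the high-fat channel of fat alone, with 103 over 53 there and 56 over 26 in the normal-diet channel. Its bound was 1.14-fold, and its measured log2 ratio of 0.22 ± 0.85 lay within the scanner error. Mmp12 (macrophage elastase) had levels of 6.80 and 6.92 in fat and a log2 ratio of 0.12 ± 0.29, and was not detected in liver. The 10 measured macrophage markers had a median log2 ratio of 0.19 in fat, and 0 of them were past 2-fold. Mmp19 was measured in both tissues, with log2 ratios of -0.01 in fat and -0.18 in liver. Mmp28 (epilysin) was above background in the high-fat channel of fat alone, and Mmp20 (the enamel protease) and Mmp21 in neither tissue.

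The gelatinases Mmp2 and Mmp9 digest denatured collagen and basement membrane collagen. Mmp2, which fibroblasts make, had levels of 9.75 and 9.76 in the normal-diet and high-fat pools of fat, a log2 ratio of 0.01 ± 0.20. In liver its levels were 7.26 and 7.35, a log2 ratio of 0.08 ± 0.24. Mmp2 thus differed by less than the scanner error in either tissue. Mmp9, the gelatinase of neutrophil granules and macrophages, was the one measured member with many copies of its probe, and 8 spots could be used on the adipose array. Its levels were 6.67 and 6.18, and all 8 spots gave a log2 ratio below 0, between -0.57 and -0.43, with a mean of -0.50 (SD 0.05 over spots of 1 slide, which is technical). The spots were dim: 7 of 8 were detected for the normal diet and 5 of 8 for high fat. The 5 spots detected in both gave -0.53. The size depends on the processing, with -0.95 at an offset of 10 and -1.69 by the software's ratio. Of 7 measured neutrophil markers 1 was past 2-fold, S100a8 at 1.51, and their median was -0.20. In liver 0 of 9 Mmp9 spots were above background in either channel.

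Membrane-bound members act at the cell surface, and Mmp14 (MT1-MMP) there activates pro-Mmp2 with the help of Timp2. Mmp14 had the lowest log2 ratio of this group in fat, -0.61 ± 0.22, from levels of 8.41 and 7.80 and spot signals of 200 over 28 and 519.5 over 53. Mmp17, held by a lipid anchor, followed at -0.30 ± 0.22, Mmp23 at -0.08 and Mmp15 at 0.15. Mmp16 was detected in the normal-diet channel of fat alone, with 77 over 24.5 and 67 over 52.5. Its measured level was 1.62-fold lower in the high-fat pool, a log2 ratio of -0.70 ± 0.71, within the scanner error. Mmp16 was the only member of the family detected for the normal diet alone in fat. In liver the same 4 measured members lay between -0.06 (Mmp14) and 0.20 (Mmp15), all within 1 scanner error of 0. Mmp24 was detected in 1 channel of each array, without a fold, and Mmp25 in none.

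Of the 4 TIMPs 0 were past 2-fold in fat, and Timp1 and Timp4 had ratios over 2 scanner errors. Timp1, the inducible soluble inhibitor, read 274.5 over 32 in the normal-diet channel and 2505 over 57 in the high-fat channel. Its levels were 9.08 and 10.00, a log2 ratio of 0.91 ± 0.22 or 1.88-fold, just under the 2-fold mark. Timp4, the TIMP known for its abundance in fat and heart, read 4020 over 29 and 14061 over 58. Its levels were 13.35 and 12.66, a log2 ratio of -0.69 ± 0.22. Timp2, which both inhibits Mmp2 and helps to activate it, had levels of 13.45 and 13.20 and a ratio of -0.25 ± 0.15, with -0.33 and -0.16 at its 2 probes. Timp3, which stays bound to the matrix and also inhibits ADAMTS enzymes, had levels of 14.26 and 14.05 and a ratio of -0.21 ± 0.20. By these loess ratios Timp2 and Timp3 were within 2 scanner errors of 0. Under median centring Timp2, Timp3 and Timp4 read 0.85, 0.93 and 0.40 and Timp1 1.78. Of these Timp4 alone lay under the median of all genes in that setting (0.69). That median cannot decide whether a bright gene differs, because the setting leaves a trend with brightness. The bright members Adamts1 and Mmp2, with loess ratios of -0.05 and 0.01, read 0.98 and 0.90 there. The 12 adipocyte markers had a median log2 ratio of 0.31, with 1 higher and 1 lower past 2-fold, and the 11 measured fibroblast markers one of 0.39, with 0 past 2-fold.

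In liver Timp2 and Timp3 had nearly equal levels in both pools, 9.56 and 9.53 for Timp2 and 10.34 and 10.31 for Timp3, with log2 ratios of -0.03 ± 0.15 and -0.03 ± 0.20. The 2 Timp2 probes pointed in opposite directions there, at -0.18 and 0.11. Timp1 was detected for high fat alone, at 83 over 49 against 65 over 30 in the normal-diet channel. Its measured level was 1.11-fold higher, a log2 ratio of 0.15 ± 0.48, within the scanner error. Timp4 was detected in the normal-diet channel alone at 67 over 28, and no fold is given. The TIMPs measured in both channels of the liver array thus differed between its pools by less than the scanner error.

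The 7 ADAMTS proteoglycanases cut aggrecan and versican, and 6 of them were measured in fat. Adamts5, one of the main aggrecanases, read 396 for the normal diet and 3822 for high fat. Its levels were 9.66 and 10.57, a log2 ratio of 0.92 ± 0.16 or 1.89-fold, with 0.94 and 0.89 at its 2 probes. Adamts5 was the member nearest below the 2-fold mark and Adamtsl2, at 1.08, the nearest above it. By the software's own ratio Adamts5 stood at 1.01 and passed. Adamts8 was lower in the high-fat pool, at -0.43 ± 0.16, with -0.52 and -0.34 at its 2 probes. The others were close to 0: Adamts15 at 0.23, Adamts9 at 0.20, Adamts1 at -0.05 and Adamts4 at -0.09. Versican (Vcan), a substrate of these enzymes, had a ratio of 0.29. In liver Adamts1 was lowest, at -0.23 ± 0.21 from levels of 10.25 and 10.03, and Adamts8, Adamts9 and Adamts15 lay between 0.04 and 0.09. Adamts4 and Adamts20 were not detected in liver, and Adamts5 was detected for the normal diet alone. Its measured mean was 1.03-fold lower in the high-fat pool, with 0.11 ± 0.47 and -0.18 ± 0.50 at its 2 probes. Those probes pointed in opposite directions, each within its scanner error.

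The procollagen N-proteinases Adamts2, Adamts3 and Adamts14 trim the amino end of fibrillar procollagens. Adamts2 had levels of 13.31 and 13.50 in fat, a log2 ratio of 0.19 ± 0.20, and 9.04 and 9.22 in liver, a ratio of 0.18 ± 0.21. Adamts14 had 0.12 in fat and -0.03 in liver, and Adamts3 was not detected. These values stayed within the scanner error. The collagens Col1a1, Col1a2 and Col3a1, whose precursors they trim, had ratios of 0.42, 0.29 and 0.85 in fat. Adamts7 and Adamts12, which cut cartilage oligomeric matrix protein, had ratios of 0.28 ± 0.24 and 0.03 ± 0.24 in fat. In liver Adamts7 had 0.13, and Adamts12 was detected for the normal diet alone, at 65 over 23 against 64 over 49. Its bound was 1.15-fold lower in the high-fat pool, and its measured log2 ratio of -0.24 ± 0.71 lay within the scanner error.

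Adamts13, which cuts von Willebrand factor and is made by hepatic stellate cells, was measured in liver and not detected in fat. Its liver spot read 165.5 over 27 and 279 over 51.5, a log2 ratio of 0.07 ± 0.21. Its substrate Vwf had -0.46 in liver and -0.06 in fat. Of the remaining ADAMTS genes, Adamts6 and Adamts10, both linked to fibrillin microfibrils, had ratios of -0.16 and 0.17 in fat and -0.05 and -0.13 in liver. Adamts16, Adamts17 and Adamts18 were detected in the high-fat channel of fat alone, with measured levels 1.27-fold, 1.21-fold and 1.26-fold higher. The log2 ratio of each of their probes lay within its scanner error. Adamts17 was also detected in the high-fat channel of liver alone, at 119 over 58 against 63 over 33. Its measured level there was 1.55-fold higher (log2 ratio 0.63 ± 0.44), the largest bound in liver. Adamts19 and Adamts20 were detected nowhere. Of the 7 members seen in the high-fat channel of fat alone, 6 had a bound above 1, on an array where far more probes were detected in that channel alone than in the other.

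The ADAMTS-like proteins bind fibrillin microfibrils rather than cut matrix. Adamtsl2, which binds a carrier protein of latent TGF-beta, read 88.5 over 33 in the normal-diet channel and 646 over 55 in the high-fat channel of fat. Its levels were 7.10 and 8.19, a log2 ratio of 1.08 ± 0.27 or 2.12-fold, at rank 540 of 14315 genes. The software's ratio was 1.79 and median centring gave 1.47. Fbn1, which encodes fibrillin-1, was higher too, at 2.09. Adamtsl1 had the lowest ratio of the family in fat, -0.78 ± 0.23 from levels of 8.31 and 7.53. Its other probe was not above background, and averaging both without a filter gave -0.47, whereas the software's ratio at the measured probe was -1.10. Adamtsl4 was nearly equal in both fat pools, at 9.41 and 9.45, and Adamtsl3 was not detected. In liver Adamtsl2 had 0.16 ± 0.21 and Adamtsl4 -0.02.

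**Figure D3:**
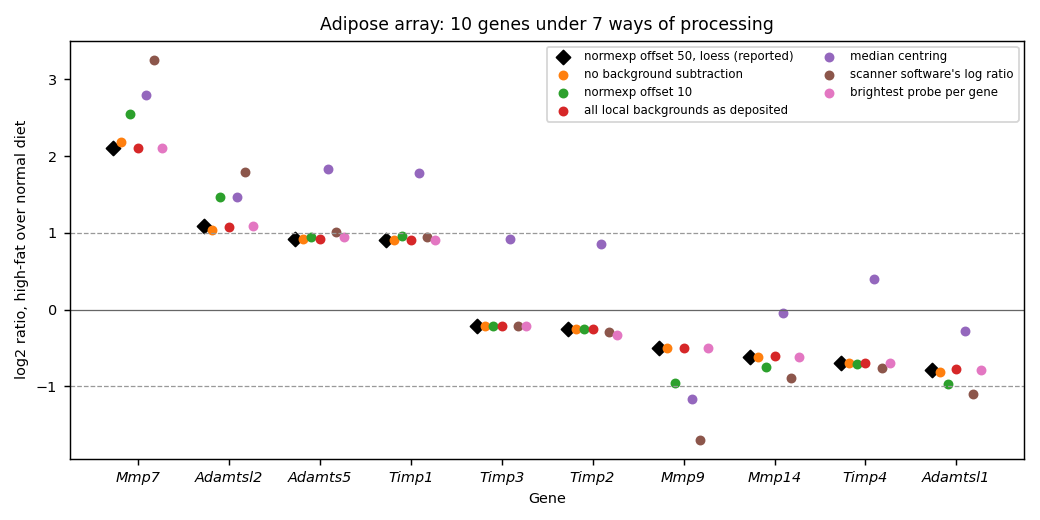
Log2 ratio of the high-fat over the normal-diet pool in fat (vertical axis) for 10 members under 7 ways of processing; black diamonds are the reported values, coloured points the alternatives, and dashed lines the 2-fold marks. Mmp7 reads 2.11 as reported and 3.26 by the software's ratio, and Timp2, Timp3 and Timp4 lie below 0 except under median centring.

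The 21 members measured in both tissues had the same sign of ratio in 15 (71.4%), beside 54.8% of 12689 genes measured in both. In liver 0 of these loess ratios passed 2 scanner errors. Mmp7 was above 0 in both tissues, at 2.11 in fat and 0.17 in liver, and so was Adamtsl2, at 1.08 and 0.16. Whether the ratios differ between the tissues could not be tested with 1 array each.

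Levels of the same probe were then compared between the arrays in the normal-diet channel, after the arrays had been given the same overall distribution of intensities. Of 24 members measured on both, 13 were at least 2-fold brighter in fat and 1 in liver. Over 12899 genes these shares were 18.2% and 16.6%. The members' median log2 difference, fat minus liver, was 1.19, beside -0.06 over all genes. Members past 2-fold were thus mostly brighter in fat, in pools without the high-fat diet. A probe detected on 1 array alone did not enter these differences. For Adamts14, counted as brighter in fat, such a probe was detected in liver, at 6.74 beside 6.25 in fat. With all local backgrounds as deposited the counts were 11 and 0, with a median of 0.657. The shares of all genes fell too in that setting, to 12.8% and 11.3%.

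The largest difference was that of Timp4, at 6.58 in liver and 13.35 in fat, a log2 difference of 6.77. Its size rests on a liver spot near background, at 67 over 28. In the high-fat channel Timp4 was not well above background in liver, with a bound of 67.7-fold towards fat. Adamts2 followed at 4.27, Timp3 at 3.92 (10.34 and 14.26) and Timp2 at 3.88 (9.56 and 13.45). Of the 4 inhibitors 3 were therefore among the 4 widest differences. Adamts5 had 3.07 and Adamts9 2.64. Timp1 was not well above background in the normal-diet liver channel and was 5.98-fold brighter in fat by its measured liver level. Further bounds towards fat were 4.04-fold for Adamts4 and 3.97-fold for Adamtsl1, again from measured liver levels, and at least 3.50-fold for Mmp3. The gelatinase Mmp2 was 2.49 higher on the log2 scale in fat.

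Brighter in liver were Mmp19, at 8.85 in liver and 7.77 in fat (log2 difference -1.08), and Adamts13, by at least 3.50-fold. Adamts8 and Mmp15 each had -0.76, Adamtsl2 -0.71, Adamts7 -0.39 and Mmp14 -0.11, all short of 2-fold. In the high-fat channel 13 of 23 members were at least 2-fold brighter in fat and 1 in liver, beside 17.6% and 16.2% of all genes, with a median of 1.45. Mmp7 went from a difference of 0.60 in the normal-diet channel to 2.53 in the high-fat channel, where its level was 7.04 in liver and 9.58 in fat. Adamtsl2 changed sides, from -0.71 to 0.22. Adamts8 was the member brighter in liver there, at -1.14, and Mmp19 stood at -0.92. Both Adamts8 differences rest on 1 of its 2 probes. The other probe pointed towards fat. It read 7.93 (normal diet) and 7.41 (high fat) in fat, and 6.03 and 6.14 in liver, where it was not well above background.

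**Figure D4:**
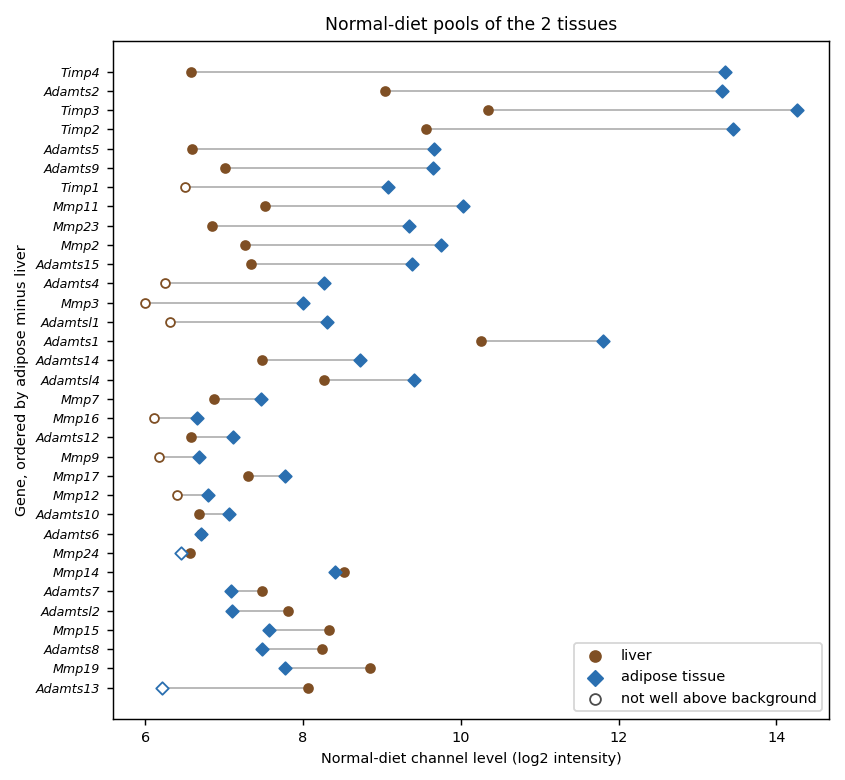
Level in the normal-diet channel (log2 intensity, horizontal axis) of each member detected on at least 1 array, in liver (circles) and fat (diamonds), ordered by the difference; open symbols were not well above background. Timp4 at the top goes from 6.58 in liver to 13.35 in fat, and Mmp19 and Adamts13 at the bottom are brighter in liver.

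Partners of the family were counted from lists of related genes. In the plasminogen system, whose plasmin activates several members, 0 of 8 measured genes in fat were at least 2-fold higher and 2 lower, Plg at -3.94 and its inhibitor Serpinf2 at -3.06. Both are liver-made plasma proteins, and the hepatocyte marker list had a median of -4.06 in the same comparison. The part of hepatocyte RNA in these ratios was not tested. The activators Plat and Plau had -0.16 and -0.28. Among activators and cell-surface regulators of the family 0 of 15 were higher and 1 was lower in fat, Spock2 at -1.29, and 0 of 15 were past 2-fold in liver. Furin, which activates Mmp14 and Mmp11, had -0.39 in fat, and Reck, a membrane inhibitor of the family, -0.04.

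Of 8 broad protease inhibitors in fat 0 were higher and 3 lower, the liver-made trapping inhibitors Pzp (-4.85), Mug1 (-4.31) and Mug2 (-4.12). In liver Mug1 and Mug2 had 0.65 and 0.60, and 0 of 9 were past 2-fold. Among 11 ADAM proteases in fat 1 was higher, Adamdec1 at 3.78, a gene of intestinal macrophages, and 0 lower. Of 4 procollagen C-proteinases and meprins 2 were higher, the brush-border enzymes Mep1b (5.36) and Mep1a (2.62). Mep1b is also on the intestinal marker list, whose median was 3.83. Of 6 matrix cathepsins 1 was higher, Ctss at 1.08, and 0 lower. In liver 0 of 10 ADAM genes, 0 of 2 C-proteinases and 0 of 7 cathepsins were past 2-fold.

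Among 20 measured matrix substrates in fat 1 was higher, Fbn1, and 1 lower, biglycan (Bgn) at -1.07. Col4a1, a chain of basement membrane collagen and a gelatinase substrate, had 0.99 and Col4a2 0.51. In liver 0 of 19 were past 2-fold. Of the AP-1, ETS and NF-kB regulators 0 of 14 were past 2-fold in fat, with Fos at 0.81 and Jun at -0.43. The inflammatory cytokines Il1b and Tnf were detected for high fat alone there, with bounds of 1.41-fold and 1.36-fold higher. Of the 18 regulator genes 14 were above background for the normal diet and 18 for high fat. On that array 4188 probes were detected for high fat alone and 520 for the normal diet alone. In liver 1 of 16 regulators was higher, Fos at 1.11 from levels of 7.98 and 9.09.

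**Figure D5:**
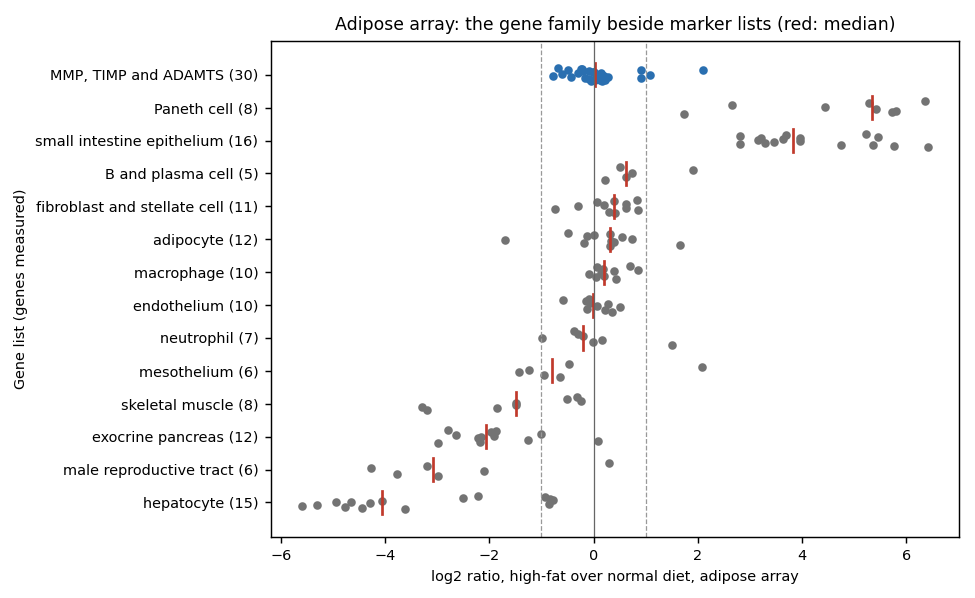
Log2 ratio of the high-fat over the normal-diet pool on the adipose array (horizontal axis) for each measured gene of the family (blue) and of 13 marker lists (grey), with list medians in red and the number of genes in brackets. The family's median is 0.02, beside 5.35 for Paneth cell, 3.83 for small intestine and -4.06 for hepatocyte markers.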

How the data were processed

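As deposited, each array's file gives raw intensity for 44397 spots in 2 channels, as medians over the pixels of a spot and of the area around it. As deposited, the log10 ratio of red over green, and its error, had been made by the scanner software with its own background subtraction and dye normalization. The file headers name Agilent Feature Extraction 11.5.1.1 with protocol GE2_1105_Oct12, and the submitters' processing notes name 8.5.1.1.

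In R 4.3.3, limma 3.58.1 corrected the background (normexp, offset 50) and fitted loess within each array, ignoring control spots. Where the software marked a local background as an outlier, the array's median for that channel took its place (in liver 1602 red and 665 green spots, in fat 1480 and 406). The script was tested on simulated data. Log2 values were averaged over the spots of a probe, then over a gene's probes. A gene was measured when a probe was well above background in both channels, counted as higher or lower at 2-fold, and given as a bound when detected in 1 channel. A bound sets the brighter channel's mean level against the dim channel. For the dim channel it takes the higher of that channel's own level and the lowest level well above background there. Where its own level was the higher, the fold is the measured ratio and no firm minimum. Bounds are also open to dye bias. Channel levels were made comparable between arrays with Aquantile. Of 39429 probes, 27508 matched 1 gene through their transcript accession. The arrays are annotated on mm9 and the promoter table on GRCm38.p6, so gene positions are not given.

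The members and lists were chosen with earlier results of these data known. Values were given for each member past 2-fold, the TIMPs, the gelatinases, the 3 bounds of largest size in each direction, and the 6 members differing most between tissues each way, with the other members by their ratios. Partner genes beyond those past 2-fold were named after their values were seen. Alternatives were no background subtraction, an offset of 10, local backgrounds as deposited, median centring, the software's ratio, looser filters, the brightest probe per gene, a rule with 2 scanner errors and, between tissues, the high-fat channel and no Aquantile. The 5-spot value of Mmp9 was added after seeing the data. Some values of the partner lists are not reported here.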

Additional observations from a re-analysis of the deposited data

How the results depend on the processing

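The absence of a liver member past 2-fold held under each alternative run. In fat, Mmp7 and Adamtsl2 were at least 2-fold higher under each alternative. Median centring, which leaves the median of all genes at 0.69 in fat, gave 8 members higher and 1 lower, with a member median of 0.64, where 29.4% of all genes were higher and 4.30% lower. In liver it left that median at 0.32, with 3.26% of genes higher and 0.205% lower. The software's ratio gave 3 members higher and 2 lower in fat, adding Adamts5 above and Adamtsl1 and Mmp9 below. By that ratio 6.29% of all genes were higher and 8.59% lower. Between tissues, in the normal-diet channel, the number brighter in liver was 2 at an offset of 10, with detection required on at least 1 array and with no filter. It was 0 with backgrounds as deposited. The shares of all genes brighter in liver were 19.2%, 15.2%, 11.1% and 11.3% in these settings, in that order. The member median was 0.657 with backgrounds as deposited, 0.876 with median centring, 0.60 with detection on at least 1 array, 0.324 with no filter and 1.45 in the high-fat channel. The cause was not tested, apart from the looser filters, which add dim genes. No paired analysis was possible because each tissue has 1 array. Signals near background limit the ratios of Mmp7 and Adamtsl2 (normal-diet channel), of Mmp9 (both channels) and of the members given as bounds. Dim liver spots likewise limit the tissue differences of Timp4 and Adamts5.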
